A study of Rattus norvegicus with 18 samples.

Results

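A set of 7 genes that mark fibroblasts was followed through rat soleus muscle: Pdgfra, Dpt, Thy1, Fap, Gas1, Colec12 and Fstl1. Members were the probe sets whose single gene symbol was 1 of these names, which gave 11 probe sets of the 31042 tested and 7 genes of 14217 with a single-gene probe set. Where a gene had several probe sets, the values below are from the one with the highest mean over all arrays. The genes were chosen with results of these data in view, and Colec12 for its low level in the left limb of SNX rats. Its values are therefore described without a test in every comparison except SNX against sham in the right limb. Collagen genes were not included.

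Chronic kidney disease was modelled in 5 male rats by 5/6 nephrectomy (SNX), and 4 male rats had a sham operation. In all 9 rats the right femoral artery was tied and resected 8 weeks later, and soleus was taken from both hindlimbs 24 hours after that. This gave 5 SNX right, 5 SNX left, 4 sham right and 4 sham left arrays, 1 Affymetrix array per limb, with 2 micrograms of total RNA labelled for each. The left limb is the unligated limb of a rat with an ischemic right limb, since no rat without ligation was measured. The sample source labels call every array of SNX rats ischemic and every array of sham rats nonischemic, although the design text places ischemia in the right limb of both. Groups are therefore called by operation and side below. Strain and age were not given in the sources used here.

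Fibroblasts of skeletal muscle lie in the connective tissue between fibres and make its extracellular matrix. Those that carry Pdgfra on their surface, often called fibro-adipogenic progenitors, support muscle stem cells after injury and can give rise to scar tissue or fat cells. No single gene marks all fibroblasts, so several are usually read together: surface proteins (Pdgfra, Thy1, Fap, Gas1, Colec12) and secreted proteins (Dpt, Fstl1).

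All values are log2 signals, and 1 unit is a doubling of signal. The 18 arrays had medians of 3.22 to 3.37, and pairs of arrays correlated at 0.968 to 0.997. The 6 slow and the 6 fast fibre markers listed all had means above the median probe set mean of 3.3. Over the 18 arrays the slow markers averaged 12.84 (Tnni1) to 14.88 (Myh7). The fast markers averaged 12.73 (Myh1) to 15.51 (Tnnt3), with Myh4 at 15.34. These lists therefore do not single out soleus. The slow marker mean ran from 11.11 (SNX right, rat 20) to 14.97 (SNX left, rat 12). The fast marker mean ran from 14.58 (sham right, rat 11) to 14.97 (SNX left, rat 37). The part of fibre content in the members' differences was not tested. There were 2 arrays that stood apart, with the lowest mean correlation to the other arrays: the right array of sham rat 17 (0.978) and the right array of SNX rat 49 (0.980). The same arrays had the highest mean of 12 macrophage markers, 9.03 for sham rat 17 and 8.36 for SNX rat 49, and the other 16 arrays reached at most 7.21. Results that rest on these arrays are given with and without them.

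Signal above the floor was examined first, which says nothing of the cell type that gave it. Of the 7 genes, 6 had signals above the array medians on all 18 arrays, and Gas1 did not. Gas1, a membrane-anchored co-receptor of hedgehog ligands (probe set 1398419_at), read 1.505, 1.52, 1.51, 1.49 and 1.51 in SNX left and 1.51, 1.51, 1.49 and 1.53 in sham left. In SNX right it read 1.52, 1.54, 1.52, 1.51 and 1.52, and in sham right 1.49, 1.53, 1.47 and 1.52. These values lie below every array median, so Gas1 was not measurable above the floor of this array and no difference is reported for it as a result. It stays among the genes counted as tested.

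Promoters of 5 of the 7 genes were in the RefSeq table for rat build GRCr8, and those of Dpt and Fstl1 are shown. They are the secreted members and contrast in base composition and in core motifs. Each is the 250 bases before the annotated start, 5′ to 3′ on the gene's strand, with motif matches in capitals. Dpt lies on the plus strand (chr13:79656091-79656340) and Fstl1 on the minus strand (chr11:76454054-76454303).
Dpt: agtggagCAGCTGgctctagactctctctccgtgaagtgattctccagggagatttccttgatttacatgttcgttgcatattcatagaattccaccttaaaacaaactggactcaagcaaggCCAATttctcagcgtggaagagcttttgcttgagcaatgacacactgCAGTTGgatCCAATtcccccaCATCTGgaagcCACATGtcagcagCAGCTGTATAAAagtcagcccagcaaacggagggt
Fstl1: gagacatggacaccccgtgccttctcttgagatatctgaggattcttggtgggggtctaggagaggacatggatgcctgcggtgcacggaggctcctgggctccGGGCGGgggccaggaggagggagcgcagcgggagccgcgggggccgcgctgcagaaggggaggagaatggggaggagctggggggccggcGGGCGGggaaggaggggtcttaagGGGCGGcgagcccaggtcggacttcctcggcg
The Dpt window had 47.2% G and C. It held a TATA box (TATAAA) 29 bases before the start, CCAAT boxes 127 and 71 bases before it, and 5 E-boxes (CANNTG) at 243, 80, 59, 48 and 35 bases. The Fstl1 window had 70% G and C and held 3 GC boxes (GGGCGG) at 146, 56 and 32 bases, with no TATA, CCAAT, E-box or AP-1 (TGANTCA) match. On both strands, over 33469 promoters of the same length, TATAAA was found in 12.9%, CCAAT in 34%, GGGCGG in 30.5%, CANNTG in 65.5% and TGANTCA in 6.34%. The windows of Pdgfra and Fap run into the annotated gene span by 88 and 180 bases. The window of Colec12 held 2 GC boxes, that of Fap 2 E-boxes, and that of Pdgfra 1 CCAAT box, 1 E-box and 1 AP-1 match. No motif was thus present in all 5 windows, and the matches describe letters, not bound sites.

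In the left limb, which was not ligated, the 6 measurable genes all had lower means in SNX than in sham rats. Colec12 was among them by its choice, and 48.1% of probe sets with a mean above the median lay below 0. No tested difference passed the threshold of an adjusted p of 0.05. Among the members tested, Pdgfra differed most, by -0.83 log2 units, a 1.78-fold lower signal in SNX rats, against a median of 0.01 over all probe sets. The values of each rat follow, in the order SNX rats 12, 18, 20, 37 and 49 and sham rats 11, 13, 15 and 17. In whole muscle RNA, fewer fibroblasts and less RNA per fibroblast cannot be told apart.

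Pdgfra (probe set 1370941_at) is the receptor tyrosine kinase for platelet-derived growth factors and the surface marker most used for muscle fibroblast progenitors. It read 8.19, 8.15, 8.29, 8.04 and 8.10 in SNX left limbs, against 8.55, 9.29, 8.94 and 9.15 in sham left limbs. All 5 SNX values lay below the lowest sham value, and the SNX values lay closer together (SD 0.096, n = 5) than the sham values (SD 0.32, n = 4). The difference was -0.83 ± 0.31 (SE), with a 95% interval of -1.48 to -0.18. The limma adjusted p was 0.676 (unadjusted 0.0161). This SE pools the spread of all 4 groups, and the Pdgfra SD was 0.62 in SNX right and 0.64 in sham right. Fitted on the left groups alone, the SE was 0.14 (limma, unadjusted p = 0.000322, adjusted p = 0.183).

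Dpt (probe set 1371732_at) encodes dermatopontin, a small matrix protein that binds decorin and helps collagen fibrils form. It read 10.72, 10.65, 10.75, 10.43 and 10.30 in SNX left limbs, against 10.95, 11.61, 11.18 and 11.44 in sham left limbs. Again the groups did not overlap. The difference of -0.72 ± 0.18 had the lowest p among the members (limma, unadjusted 0.00123, adjusted 0.362), with a 95% interval of -1.11 to -0.34. With array weights the adjusted p was 0.0639, the lowest for any member among the alternatives in this comparison, and the highest was 0.809.

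Fstl1 (probe set 1368822_at) encodes a secreted glycoprotein of the follistatin and SPARC family. It read 9.34, 8.41, 9.46, 9.24 and 8.81 in SNX left limbs, against 9.42, 10.32, 9.77 and 9.87 in sham left limbs. SNX rat 20 lay just above sham rat 11, the lowest of its group, so the groups overlapped by 1 rat on each side. The difference was -0.79 ± 0.28 (limma, unadjusted p = 0.0123, adjusted p = 0.643).

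Fap (probe set 1369422_at) is a membrane serine protease that is known from activated fibroblasts. It read 5.07, 4.84, 5.10, 4.98 and 5.15 in SNX left limbs, against 5.29, 5.49, 5.19 and 5.16 in sham left limbs. The groups did not overlap, but SNX rat 49 and sham rat 17 were only about 0.01 apart, and the difference of -0.25 ± 0.09 was the smallest of the measurable genes (limma, unadjusted p = 0.0131, adjusted p = 0.65). Thy1 (probe set 1369652_at) is a membrane-anchored glycoprotein also found on neurons. It read 3.61, 4.003, 4.15, 3.76 and 3.88 in SNX left limbs, against 4.04, 4.77, 4.21 and 4.13 in sham left limbs. Its groups overlapped, and its difference was -0.41 ± 0.21 (limma, unadjusted p = 0.0657, adjusted p = 0.83). Without sham rat 13, the highest of its group, the Thy1 difference was -0.25.

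Colec12 (probe set 1372818_at), a scavenger receptor of the collectin family, was chosen on this contrast. It read 7.82, 7.93, 8.28, 8.37 and 8.11 in SNX left limbs, against 8.78, 8.999, 8.92 and 9.21 in sham left limbs. The groups did not overlap, and the means differed by -0.87, a 1.83-fold lower signal in SNX rats.

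**Figure D1:**
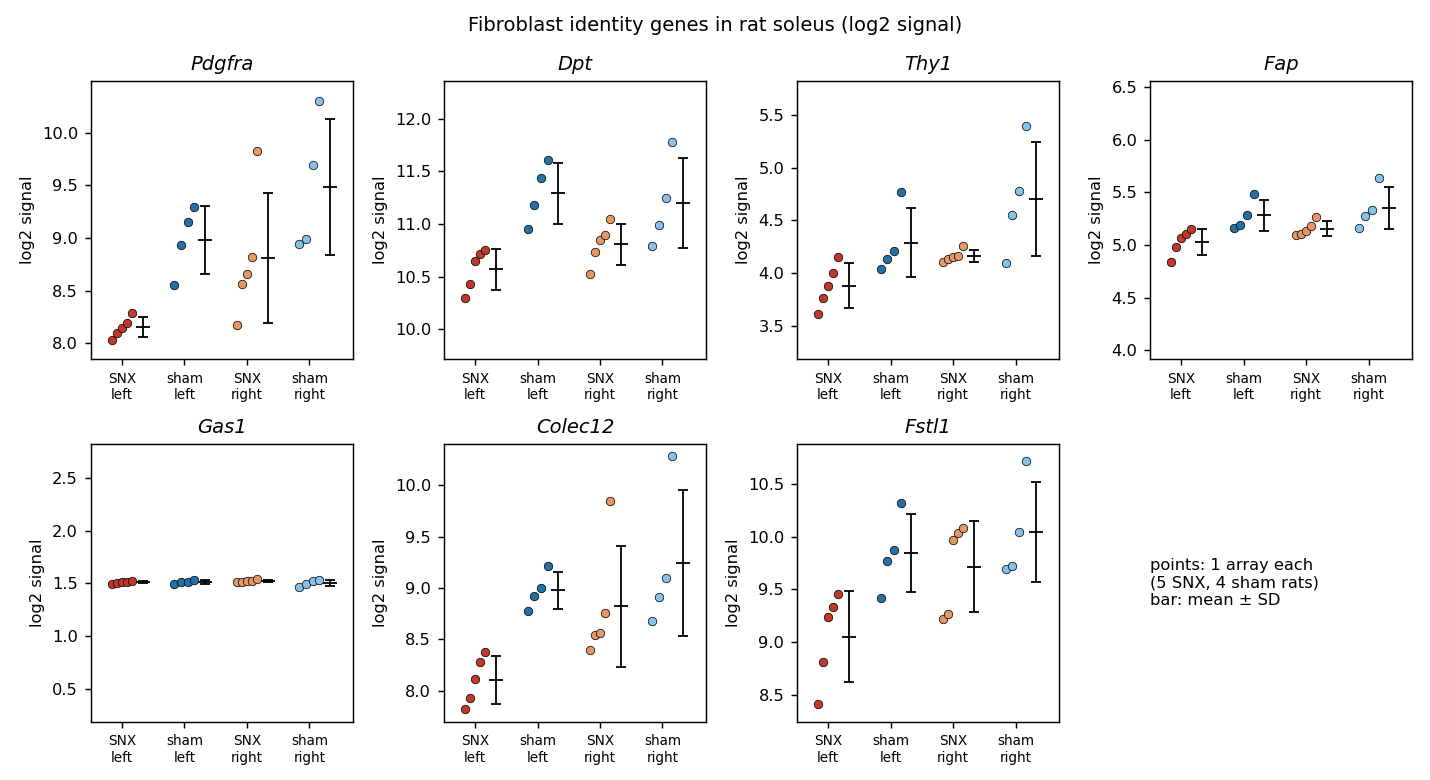
Log2 signal (y axis) of each gene in the 4 groups (x axis), with 1 point per array and the mean ± SD as a bar. SNX left arrays lay below all sham left arrays for Pdgfra, Dpt, Fap and Colec12, and Gas1 lay at 1.47 to 1.54 on every array.

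Of the 6 members tested in the left limb, 0 passed the adjusted threshold in limma, against 0.00644% of all probe sets, or 2 of 31042. At an unadjusted p under 0.05, 4 of 6 were lower in SNX rats, against 2.94% of all probe sets and 5.45% of those with a mean above the median. Pdgfra, Dpt and Fap had lower, non-overlapping groups, against 1.47% of all probe sets and 2.83% of the brighter ones. Because the genes were chosen with such values known, these counts are a description.

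Other probe sets of the same genes ran the same way where they had signal. The other probe sets of Fstl1 correlated with the main one at 0.981 (1371331_at) and 0.903 (1368821_at) over the 18 arrays. For 1371331_at, Fstl1 read 8.99, 8.08, 9.001, 8.77 and 8.34 in SNX left limbs, against 9.24, 10.21, 9.58 and 9.78 in sham left limbs. Here the groups did not overlap, and the difference was -1.06 ± 0.26 (limma, unadjusted p = 0.00107, adjusted p = 0.362). The dimmer 1368821_at differed by -0.58 ± 0.29 with overlapping groups (limma adjusted p = 0.823). For Dpt, 1373947_at correlated at 0.677 with the main probe set and differed by -0.78 ± 0.24, with overlapping groups (limma adjusted p = 0.53). The other Thy1 probe set, 1369651_at, read 2.22 to 2.33 on all 18 arrays, below every array median, and carried no usable signal.

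**Figure D2:**
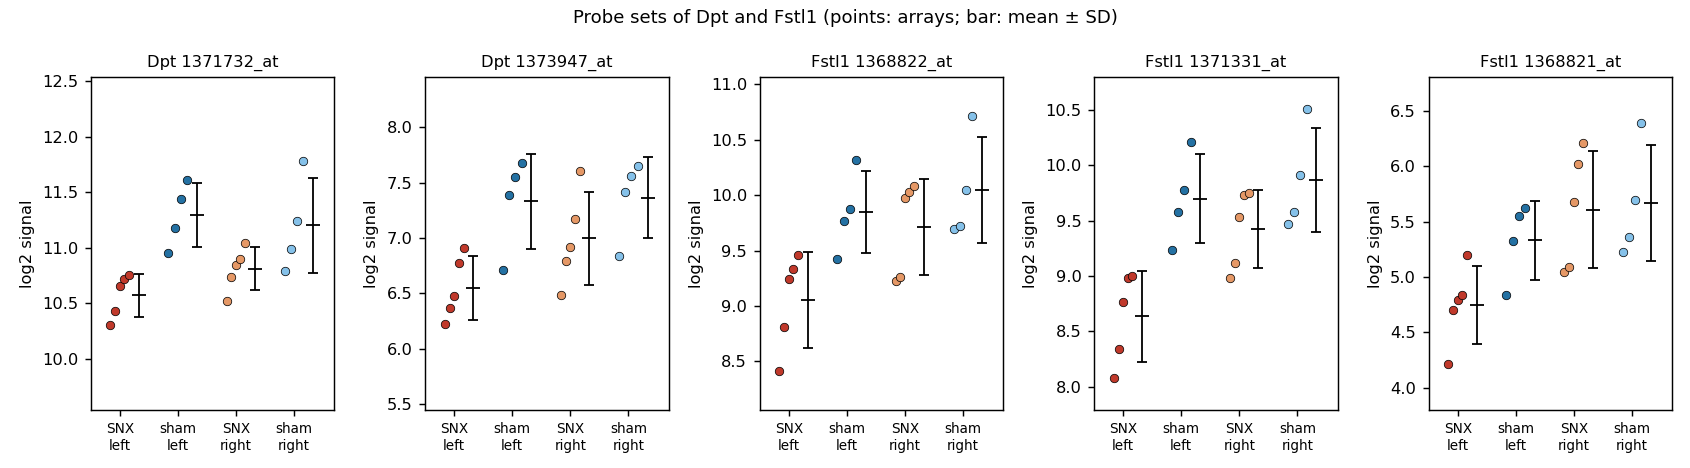
Log2 signal (y axis) of the probe sets of Dpt and Fstl1 in the 4 groups (x axis), 1 point per array with the mean ± SD, every panel spanning 3 log2 units. The SNX left mean was the lowest of the 4 groups in each panel.

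In the right, ligated limb the same 6 genes again had lower means in SNX than in sham rats, with every pair of groups overlapping. Of the brighter probe sets, 48.4% lay below 0 in this limb. Pdgfra read 8.56, 8.66, 8.18, 8.82 and 9.83 in SNX right limbs, against 8.95, 9.69, 8.99 and 10.30 in sham right limbs. The highest value of each group came from the arrays that stood apart, SNX rat 49 and sham rat 17. The difference was -0.68 ± 0.31 (limma, unadjusted p = 0.0431, adjusted p = 0.498). Without sham rat 17 it was -0.40, and without SNX rat 49 it was -0.93.

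Colec12 was tested in this limb, whose means its choice did not use. The SE of that test pools the spread of all 4 groups, the left ones included. Both limbs come from the same rats, so the test is not independent of that choice. It read 8.56, 8.76, 8.40, 8.54 and 9.84 in SNX right limbs, against 8.68, 9.10, 8.91 and 10.28 in sham right limbs. As for Pdgfra, SNX rat 49 and sham rat 17 were far above the rest of their groups. The difference was -0.42 ± 0.31 with a 95% interval of -1.08 to 0.24 (limma, unadjusted p = 0.194, adjusted p = 0.519). It was -0.08 without sham rat 17 and -0.68 without SNX rat 49, so single arrays set its size. Fitted on the right groups alone, the SE was 0.41 (limma, unadjusted p = 0.331, adjusted p = 0.562).

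Dpt read 11.04, 10.90, 10.85, 10.52 and 10.74 in SNX right limbs, against 10.79, 11.78, 11.24 and 10.99 in sham right limbs, a difference of -0.39 ± 0.18 (limma, unadjusted p = 0.0493, adjusted p = 0.498). Thy1 read 4.13, 4.15, 4.26, 4.11 and 4.16 in SNX right limbs, against 4.10, 5.40, 4.78 and 4.55 in sham right limbs. The Thy1 groups overlapped only through sham rat 11, the lowest of all, and the difference was -0.54 ± 0.21 (limma, unadjusted p = 0.0183, adjusted p = 0.498). Sham rat 13 was the highest for both genes, and without it the differences were -0.20 for Dpt and -0.31 for Thy1.

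Fap read 5.10, 5.13, 5.27, 5.10 and 5.18 in SNX right limbs, against 5.16, 5.64, 5.28 and 5.34 in sham right limbs, a difference of -0.20 ± 0.09 (limma, unadjusted p = 0.0445, adjusted p = 0.498). Fstl1 read 10.08, 9.26, 9.22, 9.97 and 10.03 in SNX right limbs, against 9.69, 10.72, 9.72 and 10.04 in sham right limbs. Its values split in both groups, and the difference of -0.33 ± 0.28 was the furthest from the threshold (limma, unadjusted p = 0.254, adjusted p = 0.548). Without sham rat 13 the Fstl1 difference was -0.11 and the Fap difference -0.10.

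No member passed the adjusted threshold in the right limb, 0 of 7 in limma, against 0% of all probe sets. At an unadjusted p under 0.05, 4 of 7 were lower in SNX rats, against 2.73% of all probe sets and 4.7% of the brighter ones. That count rests on the spread pooled over all 4 groups. Fitted on the right groups alone, the unadjusted limma p was 0.129 for Pdgfra, 0.0882 for Dpt, 0.0619 for Fap and 0.044 for Thy1. No member had lower, non-overlapping groups, against 0.483% of all probe sets and 0.876% of the brighter ones. Taking the mean of both limbs of each rat also gave 0 of 6 past the threshold (limma adjusted p of 0.531 to 0.741), with 0% of all probe sets called. Of those members 5 of 6 were lower at an unadjusted p under 0.05, against 3.75% of all probe sets. The 2 limbs of a rat are not separate animals, so this last count repeats the same 9 rats.

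**Figure D3:**
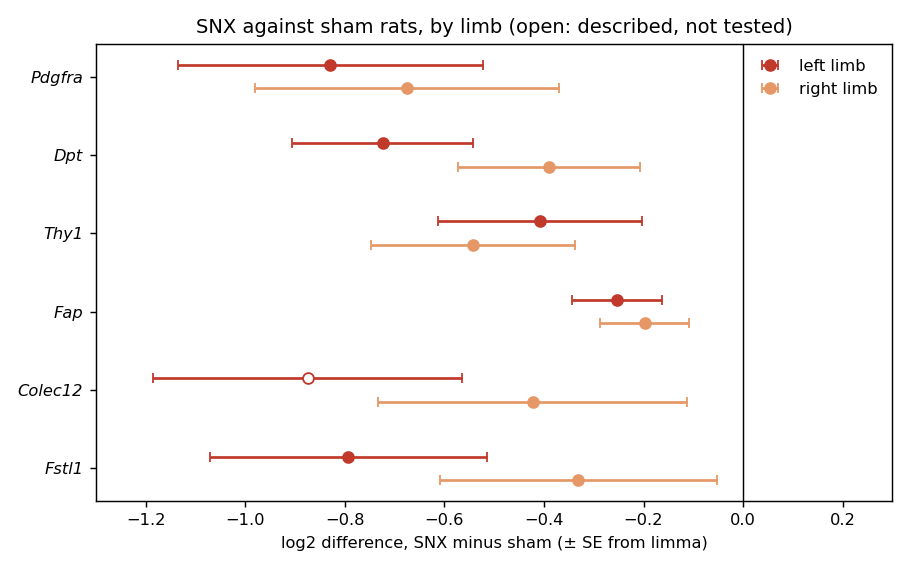
Log2 difference, SNX minus sham (x axis), with its standard error for each measurable gene (y axis) in the left and the right limb, with an open symbol for Colec12 in the left limb, which was not tested. All 12 differences lie below 0, from -0.87 for Colec12 in the left limb to -0.20 for Fap in the right limb. Colec12 was chosen for its fall in the left limb.

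The second comparison set the ligated right limb against the left limb of the same rats. No member passed the adjusted threshold in limma: 0 of 6 in SNX rats, against 0.0451% of all probe sets, and 0 of 6 in sham rats, against 0.148%. Over all 9 rats the count was 0 of 6, against 2.55%. These comparisons use the same left-limb arrays as the comparison of SNX with sham rats above. With the rat as a random block, 0.319%, 1.8% and 9.05% of probe sets were called in SNX, sham and all rats, and again no member. At an unadjusted p under 0.05 in the unblocked limma fit, 2 of 6 members were higher on the right in SNX rats, 0 of 6 in sham rats and 3 of 6 in all rats. The shares of all probe sets were 4.08% in SNX rats, 5.51% in sham rats and 8.12% in all rats. The members counted in SNX rats were Pdgfra and Fstl1. Without SNX rat 49 their unadjusted limma p was 0.166 and 0.109, and without SNX rat 20 it was 0.0188 and 0.00783.

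Thy1 was higher in the right than in the left limb of 9 of 9 rats, a count not set against a share of all probe sets. Its right minus left difference ran from 0.10 to 0.53 in the 5 SNX rats and from 0.06 to 0.63 in the 4 sham rats. The mean over all rats was 0.35 ± 0.145 (SE, limma adjusted p = 0.206, and 0.0634 with the rat as a random block). With the rat as a fixed term the adjusted p was 0.039, the only setting in which the main probe set of any member passed. In that setting 3.51% of all probe sets passed.

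For Pdgfra the right limb exceeded the left in 8 of 9 rats, all but SNX rat 20 (-0.11). The difference was 0.66 ± 0.29 in SNX rats (limma, unadjusted p = 0.038, adjusted p = 0.595) and 0.50 ± 0.32 in sham rats (adjusted p = 0.52). SNX rat 49 (1.73) and sham rat 17 (1.15) had the largest differences in their groups. Without SNX rat 49 the SNX difference was 0.39, and without SNX rat 20 it was 0.85. Over all rats the value was 0.58 ± 0.22 (limma adjusted p = 0.161, and 0.0628 with the block), and 0.34 without these 2 rats.

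For Fstl1 the right limb exceeded the left in 4 of 5 SNX and 3 of 4 sham rats. The mean difference was 0.66 ± 0.26 in SNX rats (limma, unadjusted p = 0.0236, adjusted p = 0.538, and 0.205 with the block) and 0.20 ± 0.29 in sham rats (adjusted p = 0.739). Without SNX rat 49 the SNX difference was 0.52, and without SNX rat 20 it was 0.89. SNX rat 20 was the exception among SNX rats, at -0.24. Its dimmer probe set 1368821_at differed by 0.60 ± 0.20 over all rats, with a limma adjusted p of 0.125, of 0.0369 with the rat as a random block, where 9.05% of all probe sets passed, and of 0.0617 with the rat as a fixed term.

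Dpt and Fap exceeded the left limb in 5 of 5 SNX right limbs, by 0.24 ± 0.17 and 0.13 ± 0.09 on average (limma adjusted p = 0.805 for Dpt and 0.79 for Fap). In sham rats the Dpt difference was -0.09 ± 0.19, with 2 of 4 rats higher on the right, and that of Fap 0.07 ± 0.10, with 3 of 4. Colec12, described without a test, was 0.72 higher on the right in SNX rats, in 5 of 5 of them, and the SNX right and SNX left values did not overlap. In sham rats it was 0.26 higher on average, with 2 of 4 rats higher. Sham rat 17 alone set that mean: without sham rat 17 and SNX rat 49 the Colec12 difference was 0.46 in SNX rats and -0.00365 in sham rats.

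**Figure D4:**
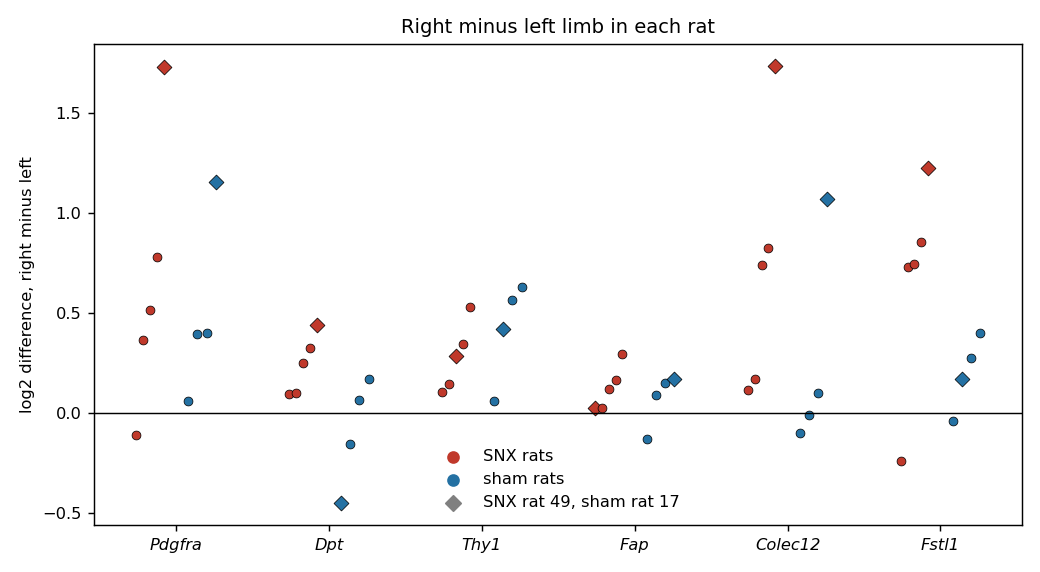
Right minus left log2 difference (y axis) of each measurable gene (x axis), 1 point per rat, with SNX rat 49 and sham rat 17 as diamonds. Thy1 lies above 0 in all 9 rats, and the diamonds are the highest points of their groups for Pdgfra and Colec12, at 1.73 and 1.74 for SNX rat 49.

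Whether the right minus left change differed between SNX and sham rats was tested as an interaction. It passed for 0 of 6 members, against 0% of all probe sets in limma, and 0 of 6 had an unadjusted p under 0.05, against 1.41% of all probe sets. The interval for Dpt, 0.33 with a 95% range of -0.22 to 0.88, and that for Fstl1, 0.46 with -0.38 to 1.30, both span 0. With the rat as a fixed term the Dpt value had a standard error of 0.13 and an unadjusted p of 0.0382 (limma adjusted p = 0.977). Without sham rat 17 it was 0.21 in the unblocked fit. With 4 and 5 rats, differences within these ranges could not be resolved, which does not show that the limbs responded alike.

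Ordered by group mean, the 6 measurable genes had SNX left lowest and SNX right next, Colec12 having been chosen for its low SNX left level. Pdgfra averaged 8.15 in SNX left, 8.81 in SNX right, 8.98 in sham left and 9.48 in sham right. For Thy1 the means were 3.88, 4.16, 4.29 and 4.71 in the same order, for Fap 5.03, 5.15, 5.28 and 5.35, for Colec12 8.10, 8.82, 8.98 and 9.24, and for Fstl1 9.05, 9.71, 9.84 and 10.04. Dpt differed in its upper end, with 10.57 in SNX left, 10.81 in SNX right, 11.20 in sham right and 11.29 in sham left. Neighbours in these orders had overlapping ranges in every case but one, SNX left and SNX right for Colec12. The choice of Colec12 used those SNX left values, and no share of all probe sets was set beside this case.

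Marker levels of some other cell types, but not of all, were also lower in SNX than in sham left limbs. No share over all probe sets was set beside these list means. In the left limb the mean of 12 of 12 macrophage markers was 5.20 to 5.77 in SNX rats and 5.85 to 6.61 in sham rats, with no overlap, and 11 of the 12 had means above the median of all probe sets. In the right limb it was 5.56 to 8.36 in SNX rats and 6.42 to 9.03 in sham rats. Schwann cell markers (6 of 8 measured) were at 4.50 to 4.79 in SNX left and 5.14 to 6.82 in sham left, and adipocyte markers (6 of 6) at 3.73 to 4.80 in SNX left and 4.90 to 7.48 in sham left. Endothelial markers (8 of 9 measured) overlapped, at 7.30 to 7.91 in SNX left and 7.61 to 8.01 in sham left. So did pericyte, tendon, satellite cell, slow fibre and fast fibre markers. The median left-limb differences were -0.29 for endothelial, -0.16 for pericyte and -0.74 for tendon markers. They were 0.13 for satellite cell, 0.18 for slow fibre and 0.02 for fast fibre markers. The T cell markers, measured for 6 of 7, all had means below the median probe set mean. They averaged 2.59 to 2.68 in SNX left and 2.58 to 2.71 in sham left. The part of these cell types in the members' differences was not tested.

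The arrays that stood apart were also those with the highest Pdgfra and Colec12. On the right arrays of SNX rat 49 and sham rat 17 the genes had their 2 highest values of the 18, 9.83 and 10.30 for Pdgfra and 9.84 and 10.28 for Colec12. Dpt did not follow, with 10.74 in the right limb of SNX rat 49 and 10.99 in that of sham rat 17, neither of them the highest in its group. The arrays that stood apart are right arrays and do not enter the left-limb means, so the left limb cannot show their influence. There, without SNX rat 49 and sham rat 17, Pdgfra differed by -0.76 and Colec12 by -0.80 between SNX and sham rats.

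**Figure D5:**
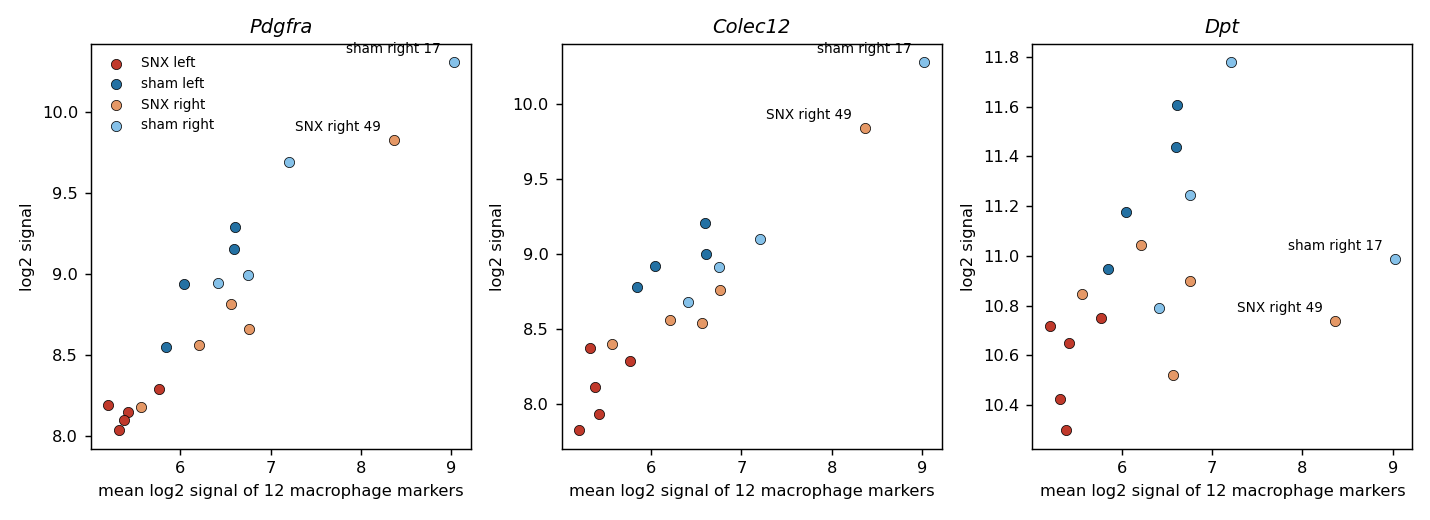
Log2 signal of single members (y axis) against the mean log2 signal of 12 macrophage markers (x axis), 1 point per array, coloured by group. The right arrays of SNX rat 49 (8.36) and sham rat 17 (9.03) lie far to the right and carry the highest Pdgfra and Colec12 values.

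How the members varied together depended on the 2 arrays that stood apart. Over the 18 arrays Pdgfra correlated (Pearson) at 0.934 with Colec12, 0.763 with Fstl1, 0.652 with Thy1 and 0.566 with Dpt. Without the 2 arrays the values for Pdgfra were 0.862 with Colec12, 0.849 with Fstl1, 0.804 with Thy1 and 0.861 with Dpt. Dpt and Colec12 correlated at 0.452 over the 18 arrays and at 0.794 without the 2. For deviations from the group means over all 18 arrays, the values were 0.88 for Pdgfra with Colec12, 0.77 for Dpt with Thy1, 0.718 for Thy1 with Fap and -0.0601 for Dpt with Colec12. Fstl1 lay between, at 0.527 with Pdgfra and 0.508 with Dpt. The arrays share rats, groups and a normalization, so these are descriptions.

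Among 9058 brighter genes, those closest to each member over the 18 arrays were ranked by Pearson correlation. Pdgfra was closest to Lasp1, an actin-binding protein (0.982), Agpat4, an acyltransferase of phospholipid synthesis (0.977), and Wipf1, a partner of the WASP actin regulator (0.973). Colec12 was closest to Fxyd2, a regulator of the sodium pump (0.959), the potassium channel Kcnk6 (0.954) and Dpysl2, a microtubule-binding protein (0.952). Without the 2 arrays the Colec12 values were 0.894 to 0.900, and those of Pdgfra 0.946 to 0.968. Lasp1 and Agpat4 were still first and second for Pdgfra, but Wipf1 ranked 7, and for Colec12 Fxyd2 ranked 13, Kcnk6 10 and Dpysl2 9.

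The other members had other neighbours. Dpt was closest to the small GTPase Rhoj (0.944), the activin-binding protein follistatin, Fst (0.938), and the peptidase Cpq (0.937). Fstl1 was closest to the collagen chain Col5a2 (0.945) and the matrix proteins Ecm1 (0.936) and Mfap5 (0.933). Fap was closest to Col14a1, a fibril-associated collagen (0.884), the homeobox factor Shox2 (0.843) and the matrix protein Matn2 (0.833). Thy1 was closest to Jam3 (0.893) and Pecam1 (0.893), both adhesion molecules of endothelial cells, and to Fam171a1 (0.888). For Gas1, which is at the floor, the closest were Mms19 (0.696), Gorasp2 (0.696) and Prkrip1 (0.686).

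Other fibroblast genes, from a list also chosen with earlier results known, were examined beside the members. In the left limb 26 of 29 measured fibroblast and progenitor genes lay below 0 for SNX against sham, with a median of -0.71, against 48.1% of the brighter probe sets. None was called in limma. Efemp1, a fibulin of elastic fibres, averaged 7.77 ± 0.24 in SNX left and 8.80 ± 0.36 in sham left (SD, n = 5 and 4), a difference of -1.03 ± 0.23 (SE, limma adjusted p = 0.352). Dcn, the collagen-binding proteoglycan decorin, averaged 12.2 ± 0.18 in SNX left and 13.0 ± 0.26 in sham left, a difference of -0.82 ± 0.19 (limma adjusted p = 0.352). Of 17 genes of activated fibroblasts, 16 lay below 0 (median -0.71) and 0 were called.

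In the right limb 22 of 29 fibroblast and progenitor genes lay below 0 (median -0.39) and 14 of 17 genes of activated fibroblasts (median -0.33), again with 0 called in limma. In that limb 48.4% of the brighter probe sets lay below 0. For right against left over all rats, 0 of 29 fibroblast and progenitor genes were called, and with the rat as a random block 3 were called higher and 1 lower. Over all probe sets 2.55% were called without and 9.05% with the block.

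Among 17 activated fibroblast genes, 2 rose in the ligated limb over all rats, or 7 with the rat as a random block, against the same 2.55% and 9.05% of all probe sets. Timp1, an inhibitor of metalloproteinases, averaged 8.89 ± 2.05 in SNX right and 5.48 ± 0.57 in SNX left, and 10.2 ± 1.44 in sham right and 6.53 ± 0.80 in sham left. Its rise was 3.54 ± 0.63 (SE, limma adjusted p = 0.0119). Fn1, the matrix protein fibronectin, rose by 1.496 ± 0.37 (limma adjusted p = 0.0444). The Timp1 call was lost without sham rat 11 (adjusted p = 0.0599), sham rat 17 (0.0561), SNX rat 37 (0.0509), or both sham rat 17 and SNX rat 49 (0.0542). The Fn1 call was lost with the rat as a fixed term (limma adjusted p = 0.0554), while that of Timp1 held (0.0398). It was also lost on leaving out any single rat but SNX rat 20, with adjusted p up to 0.123 (without sham rat 17). Without sham rat 17 and SNX rat 49 the Fn1 value was 1.07 (limma adjusted p = 0.111). Macrophages also express both genes, and their part was not tested.

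Markers of other cell types were also called in the ligated limb over all rats, beside 2.55% of all probe sets, or 9.05% with the rat as a random block. Of 12 macrophage markers 1 was called, Cd14, an endotoxin co-receptor, with a rise of 2.36 ± 0.51 (SE, limma adjusted p = 0.029), and 8 were called with the rat as a random block. Of 8 endothelial markers 2 rose, the VEGF receptor Kdr by 0.85 ± 0.15 (limma adjusted p = 0.0104) and Pecam1 by 0.34 ± 0.08 (limma adjusted p = 0.0421). With the rat as a random block, 3 endothelial markers were called higher and 1 lower. Of 8 pericyte and smooth muscle markers 3 rose, among them Pdgfrb and the potassium channel Kcnj8 (0.71 ± 0.13, limma adjusted p = 0.0134). In the same list 4 were called higher and 1 lower with the rat as a random block. In the unblocked fit Rgs5, a regulator of G protein signalling, fell by 0.63 (SE 0.13, limma adjusted p = 0.0237). These calls held in 13 of 18 alternatives for Cd14, 17 for Kdr, 8 for Pecam1, 16 for Kcnj8 and 15 for Rgs5. Without sham rat 11 the calls of Cd14 (limma adjusted p = 0.0867), Kdr (0.0511), Pecam1 (0.107) and Rgs5 (0.0867) were lost. Without sham rat 17 those of Cd14 (0.0712), Pecam1 (0.113) and Kcnj8 (0.0582) were lost. The Cd14 call was also lost without sham rat 13 (0.0654) or SNX rat 18 (0.0721) or 37 (0.0993), and that of Rgs5 without sham rat 13 (0.0719) or SNX rat 37 (0.078). That of Pecam1 was lost on leaving out any single rat but sham rat 13. Their part in the members' differences was not tested.

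Partners of the members in their pathways were mostly dim or did not pass. Of the PDGF ligands and the other PDGF receptor, 4 of 5 were measured, and Pdgfrb, the receptor of pericytes, was the only one called, beside 2.55% of all probe sets. It averaged 6.80 ± 0.29 in SNX right and 6.23 ± 0.37 in SNX left, and 7.18 ± 0.26 in sham right and 6.35 ± 0.34 in sham left (SD). Its rise over all rats was 0.70 ± 0.15 (SE, limma adjusted p = 0.0241), and 0.59 without sham rat 17 and SNX rat 49 (limma adjusted p = 0.102). The call was also lost without sham rat 11, 13 or 17 or SNX rat 37 or 49 alone, with limma adjusted p of 0.0606 to 0.0818. For SNX against sham, Pdgfrb differed by -0.12 ± 0.21 in the left limb (limma adjusted p = 0.945), beside -0.83 for Pdgfra.

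Hedgehog co-receptors and pathway genes, the setting of Gas1, were measured for 10 of 13, and only the co-receptor Boc had a mean above the median. Boc averaged 6.60 ± 0.41 in SNX left and 7.23 ± 0.37 in sham left, and 6.80 ± 0.16 in SNX right and 7.66 ± 0.35 in sham right. The Boc difference was -0.63 ± 0.22 in the left limb (limma adjusted p = 0.622) and -0.85 ± 0.22 in the right limb (limma adjusted p = 0.498). In the right limb the Boc groups did not overlap, beside 0.483% of all probe sets and 0.876% of the brighter ones with lower, non-overlapping groups.

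The follistatin family and its ligands (12 of 12 measured) had 8 of 12 genes below 0 in the left limb for SNX against sham, with a median of -0.23 and 0 called. Inhba, the activin subunit, differed by -2.22 ± 0.47 and Fst by -1.20 ± 0.33 (limma adjusted p = 0.352 for Inhba and 0.425 for Fst). Among peptidases near Fap, 6 of 8 lay below 0 (median -0.06), led by the membrane metalloproteinase Mmp14 at -0.83 ± 0.20 (limma adjusted p = 0.352). Of 6 measured collectins and scavenger receptors, 6 lay below 0 (median -0.32), led by Scara5 at -0.94 ± 0.34 (limma adjusted p = 0.675). None of these 3 lists had a called gene in any of the 7 comparisons of the unblocked fit.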

How the data were processed

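Soleus RNA of 9 rats was measured on 18 rat arrays (Affymetrix), 1 per limb. The authors deposited a table of normalized log2 values for 31099 probe sets. The submitters' processing notes list RMA, GCRMA and Partek without roles or versions; background correction differs between RMA and GCRMA and affects dim probe sets most. Arrays give no read depth, and precision is limited by the 4 or 5 rats per group.

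Tests covered 31042 probe sets, without 57 control ones. Symbols came from the platform annotation, updated through Entrez IDs to RefSeq GRCr8 for 20758 of 20826 single-gene probe sets; 436 with several genes and 9780 with none were not named. Groups came from the titles, and the title number was read as the rat. One mean per group was fitted over the 18 arrays with limma 3.58.1 (lmFit, eBayes) in R 4.3.3, with the package data.table (version 1.17.8) for input. The comparison on the mean of both limbs used 1 value per rat. Two-sided p-values were adjusted with the Benjamini-Hochberg method over 31042 probe sets, with a threshold of 0.05. The fit had 14 residual and 1.02 prior degrees of freedom. It was also run on simulated data with independent noise per array, which do not mimic the paired limbs or unequal group spreads of these data. Figures were drawn with matplotlib 3.10.9 in Python 3.11.15.

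The limbs of a rat come from 1 animal, so fits with the rat as a random block (consensus correlation 0.297) and as a fixed term were run beside the unblocked fit. As a check, the deviation of an array from its group mean was correlated between the limbs of a rat, and exceeded 0.1 in 7 of 9 rats.

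The members, gene lists and tests were chosen with earlier results of these data known. All 7 members are named, with the 3 genes most correlated with each. Of each list, up to 3 genes past the threshold are named, or at most the 2 of lowest p. In all, 7 comparisons were made. Alternatives were leaving out each rat, leaving out sham rat 17 and SNX rat 49, only the groups compared, other scalings, array weights, a filter on dim probe sets, an intensity trend and the mean of a gene's probe sets. Promoter windows were searched on both strands. Thy1 and Gas1 promoters were not used here.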

Additional observations from a re-analysis of the deposited data

Results flagged for a closer look

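In the right limb of SNX rats, Colec12 (probe set 1372818_at) had 1 array far from the others: SNX rat 49 at 9.84, against 8.76 for the next highest rat. The gap of 1.09 was 0.751 of the whole range of the group, above Dixon's critical value for 5 samples. Of 44 groups of values examined, this was the only one, and chance gives such a gap in about 1 in 20 groups. The same array had the highest mean of macrophage markers among SNX rats, and their part was not tested.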

How the results depend on the processing

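No member passed the threshold in any of the 7 comparisons when any 1 rat was left out (0 to 0 members). A count other than 0 came only with the replicate block as a fixed term, for right against left in all rats: 1 member passed (Thy1, adjusted p = 0.039). The replicate block as a random term changed no call of a member, with 0 of 6 past the threshold for right against left in all rats. Directions of tested members reversed in 5 cases. The right minus left difference of Dpt in sham rats was 0.02627 without sham rat 17, and 0.02627 with SNX rat 49 also left out. Over the settings that left out 1 rat it ran from -0.1808 (without sham rat 13) to that value. That of Fap in sham rats was -0.01349 after quantile normalization. The difference of the responses was -0.0098 for Fap without sham rat 11, up to 0.09025 without sham rat 17, and -0.115 for Pdgfra without SNX rat 49, up to 0.3706 without sham rat 17. Colec12, described only, was at -0.00365 for right minus left in sham rats without sham rat 17. The causes were not tested. For SNX against sham, in each limb and in the mean of both limbs, the 6 measurable members kept their direction under the alternatives run. For Colec12 in the right limb the value ran from -0.68 to -0.08, and for Pdgfra in the left limb from -0.97 to -0.73. Fits of only the groups compared were not possible for right against left in all rats, the difference of the responses or the mean of both limbs. Gas1 left the counts when dim probe sets were filtered. Small groups, dim signals of Thy1 and Fap, the unknown roles of RMA and GCRMA, and conflicting source labels limit these values.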
